A study of Mus musculus with 9 samples.

Results

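The genes Ly6c2, Plac8, Chil3, Lyz2, Ngp, Camp, Ltf, Retnlg and Mpo were described as a set of 9 of the 56748 genes in the count table, chosen by name as markers of blood monocytes and of neutrophil granules. Each name picked 1 gene, and all 9 passed the filter on low counts that left 18093 genes for testing. Classical monocytes are short-lived blood cells that carry the surface protein Ly6C and enter injured tissue, where many become macrophages. Neutrophils fill their granules in the bone marrow in a fixed order: primary granules with myeloperoxidase first, then secondary granules with lactoferrin and cathelicidin, then tertiary granules, after which most granule genes are switched off. In a wounded cortex, neutrophils and monocytes arrive from the blood, whereas the intact cortex holds resident cells such as microglia and few of these blood cells outside its vessels.

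The 9 RNA sequencing libraries, made from polyadenylated RNA, came from wild-type C57BL/6J mice aged 2 to 3 months, with 3 biological replicates in each of 3 groups. Reactive cultures came from lesion cores that were cut out of the cortex and grown in serum-containing medium (10% FBS), and the entire culture was sequenced, with no sort. Injured cortex and uninjured cortex were freshly dissociated and passed through a cell sorter that left out debris, dead cells and neurons (positive for CD171, negative for ACSA-2). The lesion was a grid of lancet cuts. For injured cortex the sample labels give 1 day between injury and dissection, and the series' design text gives 3 days. For the cultures the labels give 1 day and then 6 days in culture, and the design text 24 h and then 8 days. No sort for blood cells and no perfusion is described, and neither source says how many mice went into a library. All 9 libraries are bulk mixtures, so that fewer cells of a type and less RNA per cell cannot be told apart in any value below.

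Total counts were 16667883 to 24302770 in the cultures, 20389561 to 21135163 in injured cortex and 12205049 to 18577561 in uninjured cortex. Levels are CPM, counts relative to the library's size, with that size corrected for composition by TMM factors. Without these factors 5 group means of the 9 genes moved by more than 1 SD. Lyz2 was at 32055 CPM in the cultures and 599 CPM in uninjured cortex, against 43086 and 488 CPM. Chil3 was at 2.44 and 12.8 CPM in these groups, against 3.28 and 10.3 CPM. Ly6c2 in the cultures was at 1.44 CPM, against 1.94 CPM. Uninjured replicates 2 and 3 stood apart: 1474 olfactory and vomeronasal receptor genes, which cortex does not use, summed to 166 and 139 CPM of the library total in them. The sum was 43.8 CPM in uninjured replicate 1 and 14.1 to 24.8 CPM in the cultures and injured cortex, so that uninjured replicate 1 was raised as well. Without replicates 2 and 3, 1 uninjured library remains, and its variation is taken to be that of the other libraries. Injured replicate 1 held the most Ly6c2 and injured replicate 3 the least.

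The labelled tissue was checked against lists of marker genes. Of 11 microglia markers, 11 were detected in both cortex groups, summing to 7522 to 20742 CPM in injured cortex and 11250 to 18087 CPM in uninjured cortex. Hemoglobin and other erythrocyte genes, 5 in all, summed to 3.91 to 9.27 CPM in the cultures, 1266 to 2617 CPM in injured cortex and 2987 to 3968 CPM in uninjured cortex. Erythrocyte RNA was thus present in both sorted groups, with the higher sum in the uninjured one.

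The promoters of the granule genes Ngp, Ltf and Camp, all on chromosome 9, and of the monocyte gene Ly6c2 and the lysozyme gene Lyz2 are shown because the results that follow set these granule genes beside these monocyte genes. Each is the 250 bases before the annotated start, written 5′ to 3′ along the gene, from RefSeq on GRCm38.p6, a different build from the GRCm39 alignment of the counts. Capitals mark matches, on either strand, to TTGNGNAA, a form of the site of C/EBP factors, and to AGGAAGT, a form of the site of PU.1. Both are known regulators of myeloid genes.
Ngp chr9:110419558-110419807 (+ strand): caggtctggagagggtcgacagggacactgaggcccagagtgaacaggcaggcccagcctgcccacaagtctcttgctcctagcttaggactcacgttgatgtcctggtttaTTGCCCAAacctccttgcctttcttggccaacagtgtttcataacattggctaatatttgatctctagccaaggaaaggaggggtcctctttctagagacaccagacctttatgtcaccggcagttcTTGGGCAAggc
Ltf chr9:111019042-111019291 (+ strand): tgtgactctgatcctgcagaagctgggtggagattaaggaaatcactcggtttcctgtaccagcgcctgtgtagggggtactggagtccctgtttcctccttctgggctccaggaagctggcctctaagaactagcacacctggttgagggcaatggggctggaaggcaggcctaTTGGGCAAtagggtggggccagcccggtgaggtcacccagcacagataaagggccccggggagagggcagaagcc
Camp chr9:109849457-109849706 (- strand): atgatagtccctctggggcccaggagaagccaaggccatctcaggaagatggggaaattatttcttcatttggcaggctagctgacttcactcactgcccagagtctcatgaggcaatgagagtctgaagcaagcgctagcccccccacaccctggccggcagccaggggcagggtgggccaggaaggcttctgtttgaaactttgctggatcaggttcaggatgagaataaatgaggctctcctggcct
Ly6c2 chr15:75111972-75112221 (- strand): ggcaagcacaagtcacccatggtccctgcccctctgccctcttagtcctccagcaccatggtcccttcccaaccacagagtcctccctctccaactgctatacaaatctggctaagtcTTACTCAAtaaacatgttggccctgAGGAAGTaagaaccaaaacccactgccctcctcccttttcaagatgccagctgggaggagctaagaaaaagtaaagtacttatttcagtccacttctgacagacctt
Lyz2 chr10:117282273-117282522 (- strand): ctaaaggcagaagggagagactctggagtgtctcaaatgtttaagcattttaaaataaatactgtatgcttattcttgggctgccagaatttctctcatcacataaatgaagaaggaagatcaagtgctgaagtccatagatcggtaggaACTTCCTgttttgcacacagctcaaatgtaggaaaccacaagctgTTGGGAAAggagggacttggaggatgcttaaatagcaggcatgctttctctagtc
All 9 genes had a promoter in the RefSeq table. The C/EBP form was found in 4 of the 9 (Ngp, Ltf, Ly6c2 and Lyz2) and in 11.6% of 27025 promoters of the same length. In Ngp it occurred at 2 places, 138 to 131 and 11 to 4 bases before the start. The PU.1 form was found in 4 of the 9 (Ly6c2, Lyz2, Chil3 and Mpo) and in 7.8% of all promoters. Camp, Plac8 and Retnlg held neither form in this window. The forms were chosen with the promoters in view, so that these shares do not test for enrichment. The matches describe letters, and no binding was measured.

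In injured cortex the classical monocyte genes Ly6c2, Plac8 and Chil3 and the lysozyme gene Lyz2 rose strongly, by 51.1-fold, 37.2-fold, 13.7-fold and 9.13-fold over uninjured cortex. The secondary granule gene Ltf rose by 3.09-fold. The other granule genes Ngp, Camp, Retnlg and Mpo were 1.87-fold to 2.19-fold higher and did not pass the test. In all, 5 of the 9 genes were called higher and 0 lower by edgeR's quasi-likelihood test at a Benjamini-Hochberg adjusted p of 0.05, where 11.9% of the 18093 genes tested were called, 8.99% higher and 2.87% lower. The median log2 fold change was 1.63 over the 9 genes and 0.00 over all genes tested. With uninjured replicates 2 and 3 left out 3 of the 9 were called, and with no filter on low counts 8 were. Upper-quartile scaling, which moved the median of all genes to -0.12, changed the share of higher calls among all calls to 64.0%, against 75.8%, and called the same number of the 9.

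**Figure D1:**
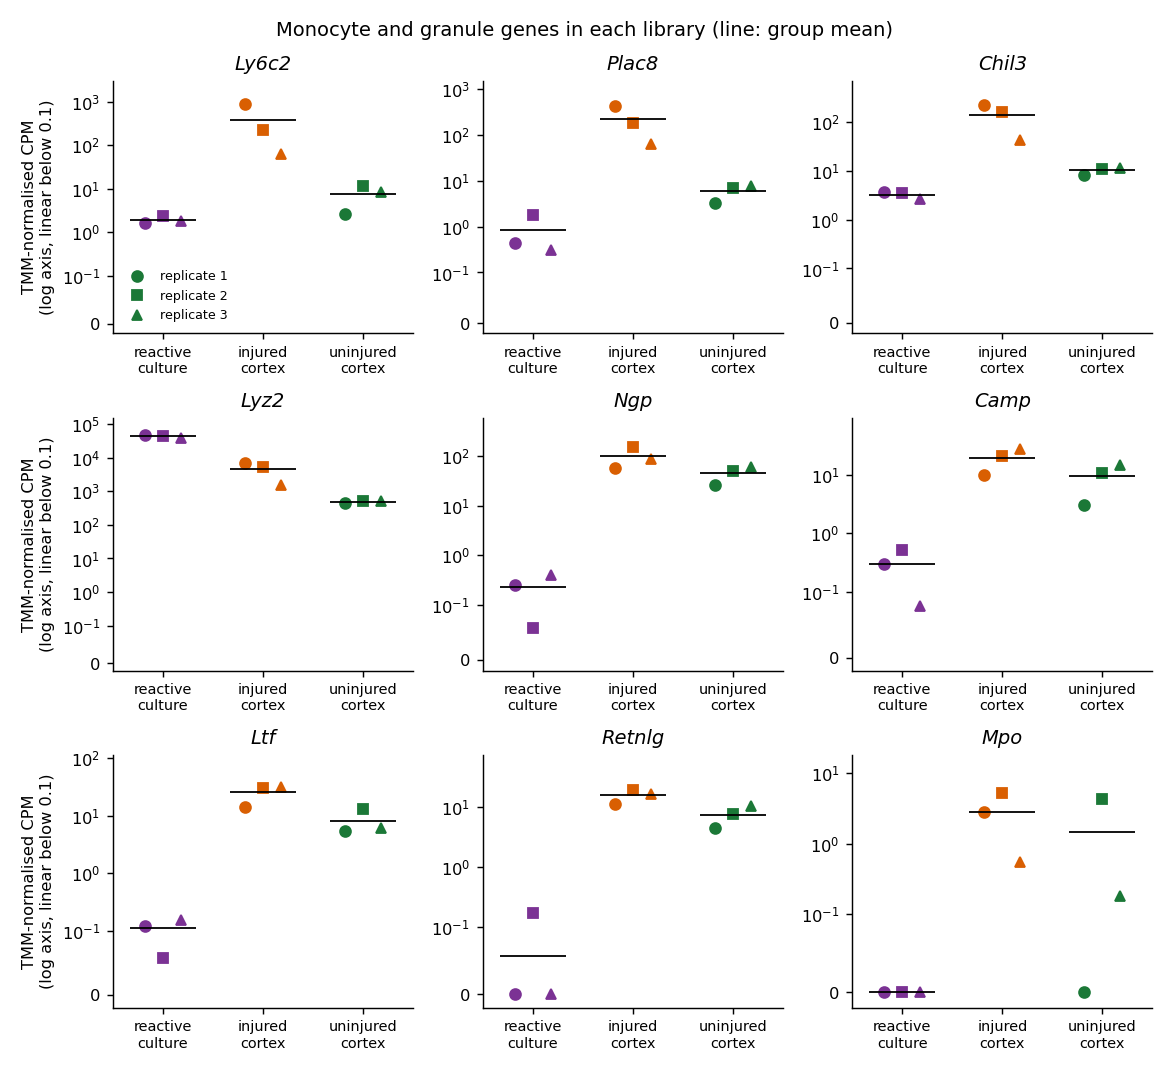
TMM-normalised CPM of each of the 9 genes (logarithmic axis, linear below 0.1) in the 3 libraries of reactive cultures, injured cortex and uninjured cortex; symbols mark the replicate number and the line the group mean. Ly6c2 lies at 63.3 to 878 CPM in injured cortex, against 2.59 to 11.7 CPM in uninjured cortex, while Lyz2 alone is highest in the cultures, at 39551 to 47132 CPM.

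Ly6c2 (ENSMUSG00000022584) encodes a form of the Ly6C surface protein that marks classical monocytes. It was at 1.66, 2.36 and 1.80 CPM in the cultures, at 878, 224 and 63.3 CPM in injured cortex and at 2.59, 11.7 and 8.38 CPM in uninjured cortex (replicates 1, 2 and 3). No injured library overlapped with an uninjured one, and the injured libraries themselves spanned 13.9-fold. The mean was 1.94 ± 0.370 CPM in the cultures, 388 ± 432 CPM in injured cortex and 7.55 ± 4.59 CPM in uninjured cortex (SD, n = 3 each). Injured cortex had a log2 fold change of 5.68 ± 0.86 over uninjured cortex (SE, adjusted p = 0.00120). Dropping injured replicate 1 gave 4.23 (adjusted p = 0.00100), and dropping uninjured replicates 2 and 3 gave 7.21 (adjusted p = 0.0323).

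Plac8 (ENSMUSG00000029322), which encodes a small cysteine-rich protein found in monocytes and other leukocytes, had the same order of the injured libraries as Ly6c2. It was at 0.430, 1.84 and 0.313 CPM in the cultures, at 425, 183 and 63.9 CPM in injured cortex and at 3.25, 7.09 and 7.65 CPM in uninjured cortex. All 3 injured libraries were above all 3 uninjured ones, and the log2 fold change was 5.22 ± 0.70 (adjusted p = 5.82e-04). It was called at 4.34 without injured replicate 1 and at 6.09 without uninjured replicates 2 and 3.

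Chil3 (ENSMUSG00000040809) encodes Ym1, a chitinase-like secreted protein without chitinase activity that mouse monocytes, macrophages and neutrophils make. It was at 3.68, 3.51 and 2.66 CPM in the cultures, at 225, 160 and 42.8 CPM in injured cortex and at 8.33, 10.9 and 11.8 CPM in uninjured cortex. The injured libraries were again all above the uninjured ones, with injured replicate 3 lowest of the 3. Chil3 rose by 3.78 ± 0.48 on the log2 scale (adjusted p = 3.79e-04).

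Lyz2 (ENSMUSG00000069516) encodes lysozyme M, an antibacterial enzyme of monocytes, macrophages and neutrophils. It was the most abundant of the 9 genes in every library, at 47132, 42577 and 39551 CPM in the cultures, 6683, 5112 and 1575 CPM in injured cortex and 449, 516 and 498 CPM in uninjured cortex. The 3 groups did not overlap, and their order, cultures above injured above uninjured cortex, was that of no other gene of the 9. Lyz2 rose by 3.19 ± 0.54 on the log2 scale in injured against uninjured cortex (adjusted p = 0.00244). Dropping uninjured replicates 2 and 3 left it at 3.30 and ended its call (adjusted p = 0.111).

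Of the secondary granule genes, Ltf (ENSMUSG00000032496), which encodes the iron-binding protein lactoferrin, was called higher in injured cortex. It was at 0.123, 0.0575 and 0.156 CPM in the cultures, at 14.4, 30.1 and 31.8 CPM in injured cortex and at 5.46, 12.9 and 6.19 CPM in uninjured cortex. The 2 cortex groups did not overlap, though injured replicate 1 was close to uninjured replicate 2. Ltf rose by 1.63 ± 0.39 on the log2 scale (adjusted p = 0.0172). Its call was lost without uninjured replicate 3 (1.44, adjusted p = 0.0799) and also when uninjured replicate 2 was dropped along with it (2.20, adjusted p = 0.0655).

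Ngp (ENSMUSG00000032484), which encodes neutrophilic granule protein, had the highest CPM of the 5 granule genes of the 9 in both cortex groups. It was at 0.246, 0.0575 and 0.391 CPM in the cultures, at 57.8, 153 and 88.4 CPM in injured cortex and at 25.7, 50.9 and 59.5 CPM in uninjured cortex. Injured replicate 1, the library richest in Ly6c2, was the lowest of the injured libraries and lay within the uninjured range. The log2 fold change was 1.13 ± 0.39 (adjusted p = 0.0794), and Ngp was called without injured replicate 3 (adjusted p = 0.0472).

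Camp (ENSMUSG00000038357) encodes the precursor of the antimicrobial peptide cathelicidin. It was at 0.307, 0.517 and 0.0782 CPM in the cultures, at 9.99, 21.1 and 26.9 CPM in injured cortex and at 3.09, 10.7 and 14.5 CPM in uninjured cortex. Injured replicate 1 was again lowest in its group and overlapped with the uninjured libraries, and the log2 fold change was 1.03 ± 0.52 (adjusted p = 0.236).

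Retnlg (ENSMUSG00000022651) encodes a secreted resistin-like protein that mouse neutrophils make. It was at 0, 0.172 and 0 CPM in the cultures, at 11.3, 19.4 and 16.1 CPM in injured cortex and at 4.52, 7.49 and 10.1 CPM in uninjured cortex. The 2 cortex groups did not overlap, and the log2 fold change of 1.07 ± 0.42 did not pass the test (adjusted p = 0.126). Without uninjured replicates 2 and 3, Ngp was at 1.94, Camp at 2.63 and Retnlg at 1.77 (adjusted p 0.114, 0.0911 and 0.234). Counting groups that do not overlap, 6 of the 9 genes were higher in injured cortex and 0 lower. Of all genes tested 28.6% had such groups, 16.1% higher and 12.5% lower.

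Mpo (ENSMUSG00000009350) encodes myeloperoxidase, the main enzyme of primary granules, transcribed mostly in bone marrow precursors. It had 0 counts in every culture, 60, 100 and 16 counts in injured cortex and 0, 95 and 3 counts in uninjured cortex, or 2.83, 5.23 and 0.544 CPM in injured and 0, 4.26 and 0.182 CPM in uninjured cortex. Uninjured replicate 2 alone held 95 of the 98 uninjured counts, and the 2 groups overlapped. Its log2 fold change was 0.90 ± 1.23 (adjusted p = 0.696), with 4.89 when uninjured replicate 2 was dropped (adjusted p = 0.0690) and 0.15 when injured replicate 2 was (adjusted p = 0.970). By limma-voom it was 2.50 (adjusted p = 0.265).

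**Figure D2:**
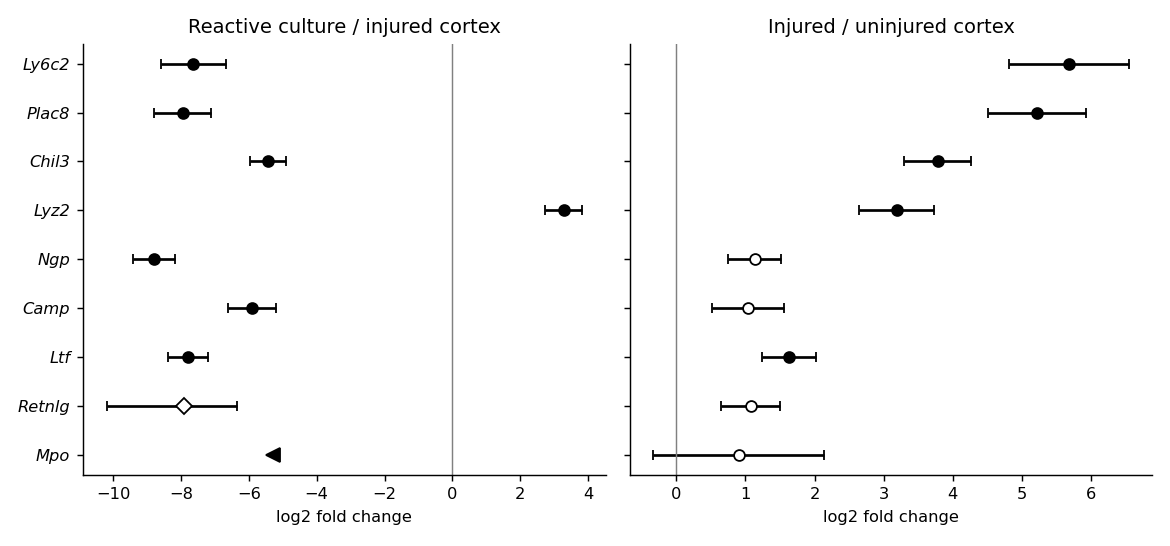
Log2 fold changes of the 9 genes in reactive cultures against injured cortex (left) and injured against uninjured cortex (right), with bars of 1 SE and filled symbols for an adjusted p under 0.05. In the left panel the open diamond is the counting ratio of Retnlg with its 95% interval and the triangle is the bound for Mpo, which had 0 counts in the cultures. Ly6c2 reaches 5.68 and Mpo 0.90 on the right, and Lyz2, at 3.27, is the one gene above 0 on the left.

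The makeup of the signal was compared between the cortex groups. Together the 9 genes took 3.53%, 3.05% and 3.03% of the counts of the 3 cultures, 0.844%, 0.554% and 0.266% in injured cortex and 0.0568%, 0.0758% and 0.0831% in uninjured cortex, most of it Lyz2. Of the counts of the other 8 genes, Ly6c2 took 54.0%, 28.1% and 19.0% in injured cortex and 4.90%, 10.1% and 7.08% in uninjured cortex. Ngp took 3.56%, 19.3% and 26.5% in injured cortex and 48.5%, 43.9% and 50.3% in uninjured cortex. Uninjured libraries were thus led by a secondary granule gene, and injured replicates 1 and 2 by a monocyte gene, while in injured replicate 3 Ngp was ahead of Ly6c2.

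**Figure D3:**
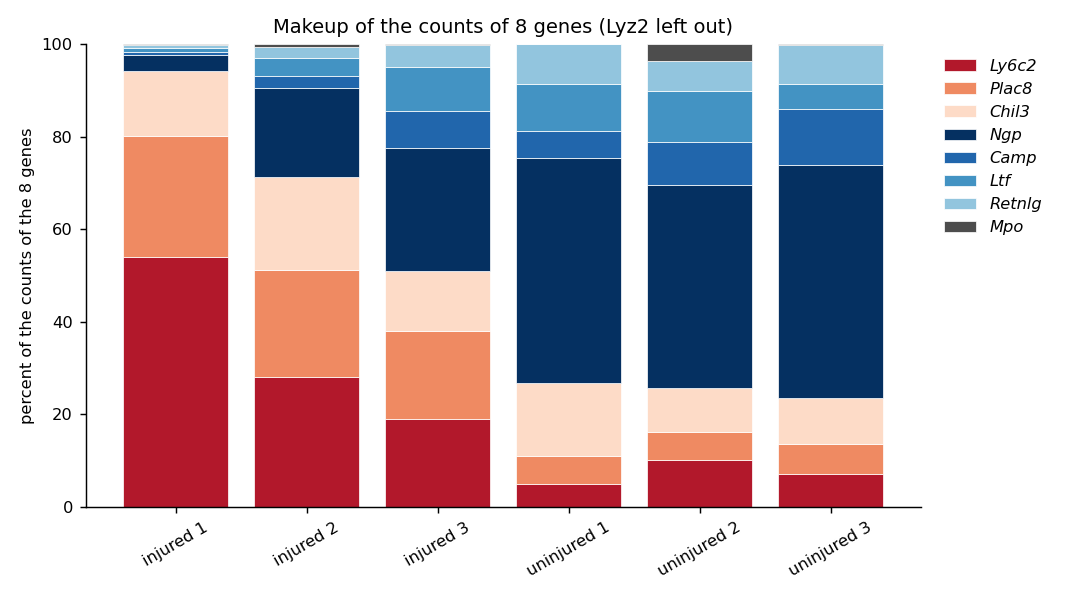
Share of each of 8 genes (Lyz2 left out) in their summed counts, in percent, for each library of injured and uninjured cortex; reds are the monocyte genes, blues the granule genes and grey is Mpo. Ly6c2 takes 19.0% to 54.0% in injured cortex, and Ngp takes 43.9% to 50.3% in uninjured cortex.

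Ratios of 2 genes within a library do not depend on the scaling, and 6 were computed, chosen after the values were seen. There were 15.2, 1.46 and 0.716 counts of Ly6c2 per count of Ngp in injured cortex and 0.101, 0.229 and 0.141 in uninjured cortex, without overlap. The exact permutation test gave p = 0.1 (two-sided, 0.3 after Benjamini-Hochberg adjustment over the 6), the smallest p that 3 libraries against 3 allow. As the ratio was chosen with its values in view, this p adds nothing to the lack of overlap. The ratio of Lyz2 to Ly6c2 was 7.61 to 24.9 in injured cortex and 44.2 to 173 in uninjured cortex, also without overlap and with the same p. Among granule genes, Retnlg per Ngp was 0.126 to 0.195 in injured cortex and 0.147 to 0.176 in uninjured cortex, and Ltf per Ngp was 0.196 to 0.359 in injured cortex and 0.104 to 0.253 in uninjured cortex. Both overlapped (exact permutation p = 1 and 0.5, two-sided, 1 and 0.9 after adjustment).

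Levels of different genes were compared per length, as CPM per kilobase of the longest protein-coding transcript (group means). In the cultures Lyz2 was at 32740, Ly6c2 at 2.36, Chil3 at 2.13 and the other 6 at 0 to 0.703. In injured cortex Lyz2 led at 3386, followed by Ly6c2 at 472, Plac8 at 183, Chil3 at 92.5, Ngp at 81.7, Retnlg at 26.3, Camp at 25.5, Ltf at 9.26 and Mpo at 1.04. In uninjured cortex Lyz2 was at 370, Ngp at 37.1, Retnlg at 12.5, Camp at 12.4, Ly6c2 at 9.18, Chil3 at 6.72, Plac8 at 4.90, Ltf at 2.98 and Mpo at 0.539. By these means the 3 monocyte genes stood above every granule gene of the 9 in injured cortex, but by library this held only in replicate 1, where Chil3 was at 146 and Ngp at 47.3. Ngp was above Chil3 in injured replicate 2 (125 and 104) and above both Plac8 and Chil3 in injured replicate 3 (72.4, against 52.2 and 27.8). Ly6c2 was above Ngp in all 3, by a small margin in replicate 3 (77.0 and 72.4). In uninjured cortex Ngp was above the 3 monocyte genes in each library, whereas Camp was below Chil3 in replicate 1 (4.08 and 5.41) and Retnlg below Ly6c2 in replicate 2 (12.6 and 14.2). Retnlg and Camp were closer than the spread of their libraries in both groups.

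Other genes of the same cell types were counted by list. Of 8 further classical monocyte genes, 7 rose in injured cortex and 0 fell (median log2 fold change 4.19), among them F10, which encodes coagulation factor X (7.55), Ms4a4c (6.03) and Ccr2, the chemokine receptor by which monocytes leave the bone marrow (4.74). Uninjured cortex held 1, 4 and 1 counts of F10, so that its value rests on few counts. Without injured replicate 1 Ms4a4c was at 5.08. With uninjured replicates 2 and 3 left out Ccr2 was at 5.45 and the count was 4 of 8. Of 7 genes of non-classical, patrolling monocytes, 4 rose, with Itgal, an integrin subunit, at 3.21 and Treml4 at 3.13. With those 2 libraries left out 2 rose, Itgal was at 3.91 and Treml4 was not called (3.24, adjusted p = 0.0858).

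Of 12 mature neutrophil genes tested beside Retnlg, 11 rose and 0 fell (median 3.73), with the lectin receptor gene Clec4d at 5.58, Trem1, an amplifier of inflammatory signals, at 5.49, the chemokine receptor gene Cxcr2 at 5.01 and Hdc, the histamine-forming enzyme, at 3.84. Clec4d was higher still in the cultures, at 369, 410 and 438 CPM against 43.2, 36.2 and 12.7 CPM in injured cortex. Retnlg was at 0 to 0.172 CPM in the cultures. In injured replicates 1, 2 and 3 Trem1 was at 90.5, 63.5 and 18.3 CPM and Hdc at 71.8, 45.6 and 21.3 CPM. Like Clec4d and Cxcr2, they followed the order of Ly6c2, whereas Ngp, Camp, Ltf and Retnlg were lowest in replicate 1. Which cells made them was not tested. The gene of the list that did not pass was Csf3r, the receptor of granulocyte colony-stimulating factor, at 0.17 (adjusted p = 0.735), named after its value was seen. Csf3r was already at 147, 131 and 116 CPM in uninjured cortex, where Cxcr2 was at 0.110, 0.359 and 0.304 CPM. In injured cortex Csf3r was highest in replicate 2 (137, 201 and 104 CPM). The count was 8 of 12 without injured replicate 1 and with uninjured replicates 2 and 3 left out, and 9 without uninjured replicate 3 and in a fit of the 2 cortex groups alone. Cxcr2 stayed called in the fit that keeps only uninjured replicate 1, which held 2 counts of it. Of 5 tertiary granule genes 3 rose, including Mmp9 at 3.62 and Mmp8 at 2.39, which encode proteases.

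Of 7 secondary granule genes beside Ngp, Camp and Ltf, 4 rose and 0 fell. They were Lcn2, an iron-siderophore binding protein, at 5.01, Cybb, the catalytic subunit of the phagocyte oxidase, at 3.89, Hp, which encodes haptoglobin, at 3.78 and Cd177 at 3.62. Macrophages and microglia also express Cybb, and astrocytes can express Lcn2. In injured replicates 1, 2 and 3 Lcn2 was at 314, 66.4 and 87.9 CPM and Cybb at 211, 130 and 57.0 CPM. Hp was at 107, 56.7 and 22.5 CPM and Cd177 at 15.3, 15.8 and 6.25 CPM. Lcn2, Cybb and Hp were thus highest in replicate 1, where Ngp, Camp and Ltf were lowest. Without injured replicate 1 Lcn2 was at 3.97 and Hp at 3.11, and Lcn2 was at 5.60 without uninjured replicate 2. Against uninjured replicate 1 alone Lcn2 was at 6.49 and Cd177 at 4.61, both called, and Wfdc21 at 2.60 (adjusted p = 0.237). The 3 that did not pass, named after their values were seen, were Wfdc21 (1.22, adjusted p = 0.224), Olfm4 (0.63, adjusted p = 0.476) and Pglyrp1 (0.27, adjusted p = 0.698). Wfdc21 was at 1.81 without uninjured replicate 3 (adjusted p = 0.151).

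Of the primary granule list beside Mpo, 2 of 5 genes had enough counts to be tested and 0 were called: the protease genes Prtn3 at 1.65 (adjusted p = 0.299) and Elane at 1.27 (adjusted p = 0.442). Uninjured replicates 1, 2 and 3 had 0, 20 and 3 counts of Prtn3 and 0, 49 and 13 counts of Elane, so that both values rest on uninjured replicate 2. Without that library Elane was at 2.61 (adjusted p = 0.237) and Prtn3, with 3 uninjured counts left, had an adjusted p of 0.104. Elane was at 0.47 without injured replicate 2 (adjusted p = 0.858), and by limma-voom Prtn3 was at 2.45 and Elane at 2.38. Against uninjured replicate 1 alone, at 0 counts, neither was called (adjusted p 0.111 and 0.0750). At an unadjusted p under 0.05 neither passed in edgeR, DESeq2 and limma-voom called 0, and with no filter on low counts 1 of 5 was called. Of 7 regulators and markers of early blood cell stages 5 were tested, and 1 rose: Flt3, a growth factor receptor of progenitors and dendritic cells, at 3.73, and at 2.98 without injured replicate 1.

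**Figure D4:**
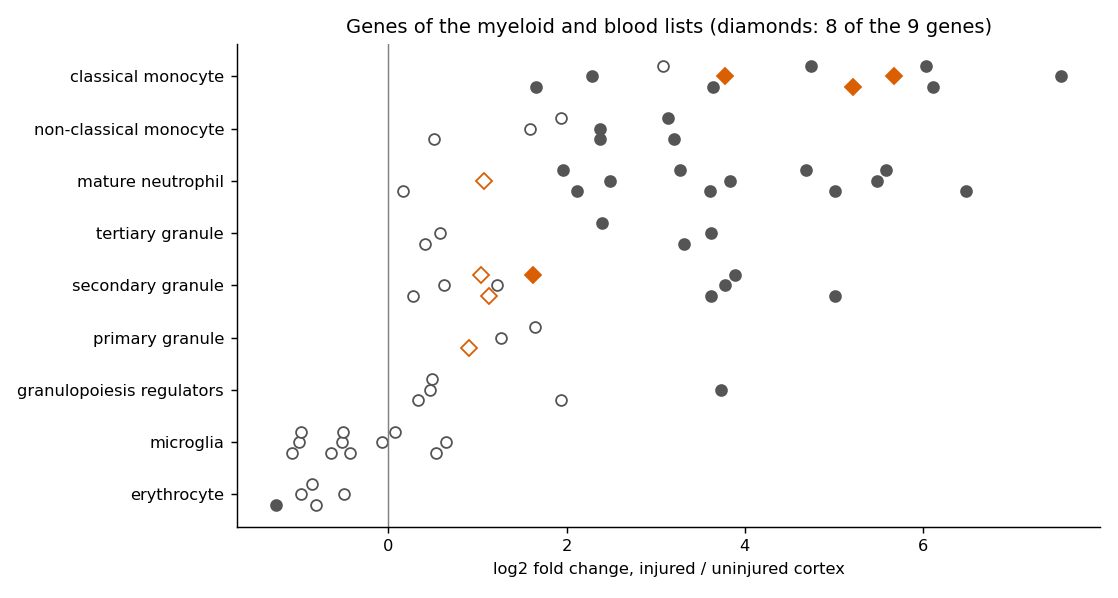
Log2 fold changes in injured against uninjured cortex of the tested genes of 9 lists, each point 1 gene, filled where the adjusted p is under 0.05; diamonds are 8 of the 9 genes (Lyz2 is in no list). The microglia and erythrocyte lists hold 0 genes called higher, and the mature neutrophil list 11.

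Markers of other cells were counted in the same way, where 11.9% of all genes tested were called, 8.99% higher and 2.87% lower. Of 8 lymphocyte genes 5 rose, and their sum was 274, 179 and 104 CPM in injured cortex, in the order of Ly6c2, and 43.3 to 63.5 CPM in uninjured cortex. The lymphocyte count was 1 without injured replicate 1 and 3 without uninjured replicate 2 or without uninjured replicate 3. Of 11 microglia genes 0 were called in either direction by edgeR (2 at an unadjusted p under 0.05) and 0 by DESeq2 and limma-voom, while 2 fell without injured replicate 2, and 1 rose and 1 fell without injured replicate 3. Of 10 macrophage genes 4 rose and 1 fell, and their sum was 4160, 7430 and 2091 CPM in injured cortex and 1266 to 2167 CPM in uninjured cortex. With uninjured replicates 2 and 3 dropped, 2 of the 10 rose. Of 5 erythrocyte genes 0 rose and 1 fell, with 3 lower by DESeq2. Of 6 astrocyte genes 0 were called by edgeR (3 at an unadjusted p under 0.05), 3 were lower by DESeq2 and without injured replicate 3, and 1 by limma-voom. Of 6 oligodendrocyte genes 1 fell, of 6 neuron genes 1 rose, of 7 endothelial genes 1 rose (Ly6a), and of 8 fibroblast and mural genes 1 rose and 2 fell. Without uninjured replicate 3 no macrophage, erythrocyte, oligodendrocyte or mural gene was called lower. The lower calls of macrophage, erythrocyte and oligodendrocyte genes were also lost without uninjured replicate 2 and without injured replicate 2, and those of erythrocyte genes without culture replicate 1. Without injured replicate 1 no macrophage, oligodendrocyte or mural gene was called lower. The higher calls of an endothelial and a fibroblast gene were lost without injured replicate 1, uninjured replicate 2 or uninjured replicate 3, and that of the endothelial gene also without any 1 of the cultures. Of 5 tested genes of eosinophils, basophils and mast cells 0 were called (3 at an unadjusted p under 0.05), 1 was higher by DESeq2, 0 by limma-voom and 4 of 6 without injured replicate 3. No gene of these lists was at 0 in every library, and the part of these cells in the results was not tested.

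In reactive cultures against injured cortex, Lyz2 rose by 9.66-fold and the other 8 genes fell. By edgeR's test 1 of the 9 was called higher and 8 lower, where 50.1% of all genes tested were called, 20.0% higher and 30.1% lower, and the 2 groups did not overlap for any of the 9 (59.6% of all genes, 25.9% higher and 33.8% lower). The log2 fold change of Lyz2 was 3.27 ± 0.54 (adjusted p = 4.08e-04). Among the genes that fell, the log2 fold change was -8.80 ± 0.61 for Ngp, -7.95 ± 0.83 for Plac8, -7.79 ± 0.60 for Ltf, -7.64 ± 0.96 for Ly6c2, -5.91 ± 0.71 for Camp and -5.43 ± 0.53 for Chil3, with adjusted p between 4.68e-07 and 5.40e-05. Over the cultures Ltf had 5 counts, Ngp 10 and Camp 15, so that the sizes of their falls rest on few counts. By limma-voom Ly6c2 was at -6.92. Without injured replicate 1 Ly6c2 was at -6.21 and Plac8 at -7.11, and without culture replicate 2 Plac8 was at -9.22 and Camp at -6.53.

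Retnlg had 3 counts in the cultures, all in replicate 2, and had 1084 in injured cortex, a ratio of 241-fold lower with a 95% counting interval of 82.1-fold to 1169-fold. Mpo had 0 counts in the cultures and was at least 39.1-fold lower, taking 3 counts over the group as the floor. The bound was 23.2-fold without injured replicate 2 and 61.5-fold without injured replicate 3. The intervals cover counting error only. The median log2 change of the 9 genes was -7.79, or -7.64 with Mpo at its bound, against -0.19 over all genes.

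Against uninjured cortex the cultures had 88.2-fold more Lyz2 (log2 fold change 6.46 ± 0.63, adjusted p = 4.12e-06). Of the 9 genes 1 was higher, 7 lower and 1 was not called, where 60.5% of all genes were called, 27.5% higher and 33.1% lower. The log2 fold change was -7.67 ± 0.60 for Ngp, -6.16 ± 0.60 for Ltf and -4.87 ± 0.70 for Camp (adjusted p = 9.33e-05 or below). It was -2.74 ± 0.75 for Plac8 (adjusted p = 0.00738) and -1.65 ± 0.47 for Chil3 (adjusted p = 0.00985). Dropping uninjured replicates 2 and 3 ended the calls of Plac8 at -1.86 (adjusted p = 0.158) and Chil3 at -1.34 (adjusted p = 0.130), left Ngp at -6.85 and Camp at -3.27, and left 5 of the 9 called. Without culture replicate 2 Camp was at -5.52 and the change of Plac8 was more than 2-fold larger.

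Ly6c2 was at 1.94 ± 0.370 CPM in the cultures and 7.55 ± 4.59 CPM in uninjured cortex (SD, n = 3), without overlap, and its log2 fold change of -1.96 ± 0.82 did not pass (adjusted p = 0.0539, and -0.42 with uninjured replicates 2 and 3 dropped). Retnlg was 113-fold lower by counts (38.5-fold to 552-fold), with 416 counts in uninjured cortex. Mpo was at least 26.7-fold lower and was called, although its groups overlapped at 0. Both rest on uninjured replicate 2, with 95 of the 98 uninjured counts: without it 3 counts remain, no more than the floor, so that there is no fold, and the call is lost (adjusted p = 0.206). For 7 of the 9 genes the cultures were below uninjured cortex without overlap, as for 37.0% of all genes, and for Lyz2 they were above it, as for 32.2% (69.2% in either direction).

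Cultures are in vitro outgrowths of lesion cores, and both comparisons also set a whole culture against sorted cells. By the labels and by the design text, cultures were also sampled longer after injury than injured cortex was. The part of each of these differences was not tested. Of 10 macrophage genes 7 rose in the cultures against injured cortex and 0 fell, and their sum was 130531 to 145517 CPM in the cultures and 2091 to 7430 CPM in injured cortex. Gpnmb, a lysosomal glycoprotein gene of phagocytes, rose by 8.73 on the log2 scale. All 11 microglia genes fell, to a sum of 1734 to 2651 CPM in the cultures. Their part in the level of Lyz2 was not tested.

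Most granule and neutrophil genes fell with Ngp, where 30.1% of all genes tested were called lower and 20.0% higher. Lists of other cells fell as well: all 6 astrocyte, 6 oligodendrocyte, 8 lymphocyte and 5 erythrocyte genes were called lower. Of 8 fibroblast and mural genes 6 rose and 2 fell. The fall was thus not particular to granule and neutrophil genes. Of 12 mature neutrophil genes beside Retnlg 10 fell and 1 rose, Clec4d, at 3.72. Of 7 further secondary granule genes 6 fell and 1 rose, Cybb, at 1.88. The tertiary granule list split, with 2 higher and 2 lower of 5: Mmp8 had a log2 fold change of 3.77, with 157, 162 and 174 CPM in the cultures and 15.8, 13.8 and 6.62 CPM in injured cortex, and Slc11a1, a metal transporter of phagocytes, was higher by 1.54. Of 8 further classical monocyte genes 5 fell and 1 rose (2 without injured replicate 1), Fn1, which encodes fibronectin and which many cultured cells make, at 1.82. These exceptions were named after their values were seen.

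Close relatives bear on how reads were assigned. Ly6c2 and Ly6c1, a gene of brain endothelium, lie on chromosome 15, and their coding sequences are identical at 384 of 393 bases (97.7%), with 47.1% of all 50-base windows of Ly6c2 found in Ly6c1. The coding sequences of Lyz2 and Lyz1 are identical at 422 of 444 bases, with 20.3% of windows shared. How reads that match both were counted is not given in the sources used here. The first 60 coding bases, from GENCODE M21 (GRCm38), show where they part, with the differing bases in capitals.
Ly6c2: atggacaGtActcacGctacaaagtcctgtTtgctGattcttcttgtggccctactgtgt
Ly6c1: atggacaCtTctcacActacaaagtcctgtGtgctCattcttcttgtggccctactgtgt
Lyz2: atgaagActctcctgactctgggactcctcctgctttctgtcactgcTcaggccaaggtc
Lyz1: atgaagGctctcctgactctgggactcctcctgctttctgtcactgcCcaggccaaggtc
The Ly6c pair differs at 5 of these bases and the Lyz pair at 2.

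Ly6c1 was at 12.4, 16.8 and 10.1 CPM in the cultures, 124, 125 and 140 CPM in injured cortex and 216, 89.8 and 143 CPM in uninjured cortex, with a log2 fold change of -0.21 between the cortex groups (adjusted p = 0.703, and 0.16 without uninjured replicate 1). Ly6c2 made up 87.6%, 64.2% and 31.1% of the counts of the pair in injured cortex and 1.18%, 11.5% and 5.52% in uninjured cortex. Lyz1 was at 7.12, 8.33 and 4.46 CPM in the cultures, 4.10, 1.62 and 0.815 CPM in injured cortex and 0, 0 and 0.0607 CPM in uninjured cortex, and was called higher in injured than in uninjured cortex (adjusted p = 0.00112). Its 3 groups stood in the order of those of Lyz2, far below it.

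Of 9 related genes tested, 5 rose in injured cortex and 0 fell: Ly6i (log2 fold change 6.11, a Ly6 gene of monocytes), Lyz1, Lpo (2.19), Chil1 (1.84) and Ly6a (1.54). The last 3 lost their calls without injured replicate 1 (adjusted p 0.114, 0.0707 and 0.261), when Ly6i was at 4.73, Lpo at 1.58 and Ly6a at 0.70. Ly6a also lost its call with DESeq2 size factors, upper-quartile factors, limma-voom and a fit of the 2 cortex groups alone (adjusted p 0.0547 to 0.116), and without any 1 of the cultures. By limma-voom Ly6i was at 5.33. The count was 2 of 9 without uninjured replicate 2, 3 without uninjured replicate 3 and 1 without both, when Ly6i was not called (adjusted p = 0.0682). The resistin relatives Retn, Retnla and Retnlb and the chitinase-like Chil4 and Chil6 had too few counts to be tested.

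The genes whose pattern over the 9 libraries was most like a given gene were taken by Pearson's r of log2 CPM among 14644 genes outside the 9, a description over 9 libraries that fall into 3 groups. Most like Ly6c2 were Slfn1, Gimap4, P2ry10 and Gzmk (r 0.987 to 0.991). Gimap4 and Gzmk are known from lymphocytes. Most like Lyz2 were Cdc45, a DNA replication gene, Dnase1l1, Ubfd1 and Anxa2, which encodes annexin A2 (r 0.996 to 0.998). Most like Ngp were Ppfia4, Srsf11, Cdc14a and 4930404I05Rik (r 0.985 to 0.989). Among the 9 genes themselves, r with Ngp was 0.986 for Ltf, 0.972 for Retnlg and 0.947 for Camp, and r with Ly6c2 was 0.983 for Chil3 and 0.974 for Plac8.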

How the data were processed

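Gene expression was measured by RNA sequencing in 9 libraries, whose groups come from the sample titles. The authors deposited whole-number read counts per gene, not normalised. Per the submitters' processing notes HISAT2 and the GRCm39 build were used (version of HISAT2 not stated). What counted the reads, with which strand rule and gene models, is not given in the sources used here. Of 56748 genes, 19741 had 0 counts in every library. No pair of replicates was within sampling noise of the other (chi-square per degree of freedom 15.6 to 149).

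The deposited counts were tested with edgeR 4.0.16 (R 4.3.3): filterByExpr at its defaults, TMM scaling, and a quasi-likelihood fit with a mean for each of the 3 groups (6 residual degrees of freedom). Benjamini-Hochberg adjustment ran over all genes tested, with calls at an adjusted p under 0.05. The alternatives tried were limma-voom (limma 3.58.1), DESeq2 1.42.0 by its Wald test or for its size factors alone, upper-quartile factors, no filter, a fit to just the 2 groups in question, a filter of 1 CPM in 3 libraries, a replicate block, each library left out, and uninjured replicates 2 and 3 left out together. For genes outside the 9 these settings were added after the data were seen. The fit was tested on counts simulated from the uninjured means, with some genes changed in injured cortex only. Changes as wide as those of the cultures were not simulated.

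The 9 genes and 18 lists were chosen with earlier results of these data known. Genes named beside the 9 are relatives of them, the up to 4 genes per list that had the lowest adjusted p between injured and uninjured cortex, exceptions in direction, and the 4 genes most like Ly6c2, Lyz2 and Ngp (mean of at least 1 CPM, prior count of 2). Motifs were chosen with the promoters in view. Transcript lengths and coding sequences are from GENCODE M21. Where a group had 0 counts, 3 counts summed over its libraries served as floor, and where it had 1 to 3, the ratio carries an exact 95% interval.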

Additional observations from a re-analysis of the deposited data

How the results depend on the processing

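Of the results on the 9 genes and on counts of calls, 556 alternatives kept the result, 16 went to a call or a clearly higher count and 19 the other way. None changed sign. For a fold change, kept means the same direction and the same side of the threshold. For a count of calls it means a number not far from the main one, so that 4 or 6 of the 9 genes, against 5, is kept. Between injured and uninjured cortex, 2145 genes were called. The count was 1369 with a fit of these 2 groups and 462 with uninjured replicates 2 and 3 left out, and ranged over 974 (without injured replicate 1) to 4102 (without injured replicate 3) when 1 library was left out, with 1123 without uninjured replicate 2 and 1284 without uninjured replicate 3. Of the 9 genes 5 were called, against 8 with no filter, 3 with uninjured replicates 2 and 3 left out and 4 to 6 with 1 library left out. With no filter Ngp was called at 1.17, Camp at 1.08 and Retnlg at 1.11, and limma-voom called Retnlg at 1.12. Leaving out 1 library gave 0.69 to 1.39 for Ngp and 1.42 to 2.10 for Ltf. With uninjured replicates 2 and 3 left out, Lyz2 was at 3.30 and Ltf at 2.20, neither called.

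In cultures against injured cortex all 9 genes were called under every alternative run. Against uninjured cortex 6997 genes were called with uninjured replicates 2 and 3 left out, against 10954, and 5 of the 9 genes. Ly6c2 was called with upper-quartile factors (-2.16), no filter (-1.94) and a fit of the 2 groups (-2.05), and was at -2.35 to -1.51 with 1 library left out, called in 4 of 9. Plac8 was at -1.86 and Chil3 at -1.34 with uninjured replicates 2 and 3 left out, and Chil3 at -1.63 with limma-voom, all not called. Mpo was not called by limma-voom (-3.32) and ranged over -8.45 to -3.85 with 1 library left out, losing its call in 4 of 9. With uninjured replicates 2 and 3 left out, no Mpo value against uninjured cortex could be had, since both groups were at 0.

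Among the other named genes, values near 0 changed sign between the cortex groups: Csf3r was at -0.12 to 0.34 with 1 library left out (-0.12 without injured replicate 2) and -0.0051 with uninjured replicates 2 and 3 left out, Pglyrp1 at -0.10 (without uninjured replicate 2) to 0.52 and at -0.12 without both, and Ly6c1 at -0.49 to 0.16 (the highest without uninjured replicate 1).

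The labels give the groups the same replicate numbers and no other link. Same-numbered injured and uninjured libraries did not deviate together in every pair (r = 0.151, -0.0880 and 0.353). So few pairs cannot tell whether the libraries share more than a number. With the replicate block 2203, 9096 and 11060 genes were called, against 2145, 9057 and 10954, and Ngp (1.13, adjusted p = 0.0295) and Ly6c2 in cultures against uninjured cortex (-2.11, adjusted p = 0.0429) were called as well. Mpo and Retnlg, at 0 to 3 counts in cultures, are limited by depth. Ltf, Ngp and Camp, at 5, 10 and 15 counts over the cultures, are limited by it to a lesser degree.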
